A study of Cucumis sativus with 12 samples.

Results

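The dehydrin and late embryogenesis abundant (LEA) genes of cucumber leaves were followed through the first day of a cold treatment. They were chosen by a rule on their descriptions: a gene was taken where its entry in the table of all 4 times held the word dehydrin or the words late embryogenesis abundant, and not hydroxyproline. This gave 11 of 24317 genes. By their descriptions, 1 was a dehydrin (dehydrin DHN1-like), 1 a Lea5-A-like protein, 3 were of the D-29 type, 4 of the D-34 type, 1 of the D-7 type and 1 a group 3-like protein.

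Leaves came from phytotron-grown cucumber seedlings with 3 true leaves, of the inbred line JinYan No. 4. The 0 h leaves were sampled before any cold, from plants kept warm with longer days. The other leaves were sampled 3, 12 and 24 h after the plants were moved to the cold, with a day of 12 h at 15 °C and a night of 12 h at 6 °C. Each time had 3 libraries, which the study describes as biological replicates. Plants kept warm for 3, 12 or 24 h are not among the samples used here, so cold cannot be told apart from seedling age, from the shorter day, or, at 3 and 12 h, from the hour of sampling. Between the cold times, the length of the cold cannot be told apart from the hour of sampling or the phase of day and night.

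LEA proteins are small, very hydrophilic proteins that were first described in maturing cotton seeds, where they build up as the embryo dries. Dehydrins are the LEA group known best from leaves, where they are held to shield membranes and enzymes while water is being lost or frozen. Many of their genes carry promoter elements bound by DREB/CBF factors, which respond to cold and drought, and by bZIP factors of the abscisic acid (ABA) pathway.

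Levels were given as FPKM, fragment counts scaled for transcript length and library depth. The sources used here do not give sequencing depth. As read from the lowest values, it was 0.912 to 1.28 times that of 0 h replicate 1. The libraries had between 18678 and 19551 genes above 0, and log2 values correlated at 0.983 to 0.990 between replicates and at 0.824 to 0.946 between times. In the second principal component, 24 h replicate 2 lay at 12.1, apart from the other 24 h libraries at 31.4 and 35.6. The samples were whole leaves, in which fewer cells of a type and less RNA per cell cannot be told apart.

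Of the 11 genes, 9 had at least 0.5 FPKM in at least 3 libraries and were tested with the 17497 genes that passed this filter. The remaining genes were a D-29-like gene, CsaV3_4G005630, with at most 0.368 FPKM and a value above 0 in 7 libraries, and a D-34 gene, CsaV3_7G027980, which was listed at 0 in all 12 libraries. Fold changes were computed on log2(FPKM + 0.5), which understates the change of low genes. A gene was called higher or lower at a Benjamini-Hochberg adjusted p under 0.05 in limma, taken over all tested genes, together with a change beyond 1 in either direction on the log2 scale.

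The summed level of the 11 genes went up, down and up again. It was 41.2, 44.7 and 39.7 FPKM in the 0 h libraries, 115, 143 and 134 FPKM at 3 h, 31.1, 22.1 and 22.2 FPKM at 12 h, and 274, 159 and 425 FPKM at 24 h. No library of one time overlapped with those of another. The DHN1-like gene made up 8.90% to 15.5% of this sum at 0 h, 42.7% to 46.0% at 3 h, 2.79% to 9.47% at 12 h and 78.4% to 86.1% at 24 h. Without it, the sum of the other 10 genes was 34.4 to 37.8 FPKM at 0 h, 65.9 to 79.0 FPKM at 3 h, 20.7 to 28.2 FPKM at 12 h and 34.3 to 58.9 FPKM at 24 h. The 24 h range of the other 10 genes overlapped with that of 0 h. Genes outside the description rule are not in these sums. Such a gene is ECPP44 (CsaV3_6G031720), named after a dehydrin-type phosphoprotein. It had 207 to 224 FPKM at 0 h and 375 to 430 FPKM at 3 h, its highest time. At 12 h it had 262 to 307 FPKM, and at 24 h 313 to 363 FPKM.

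**Figure D1:**
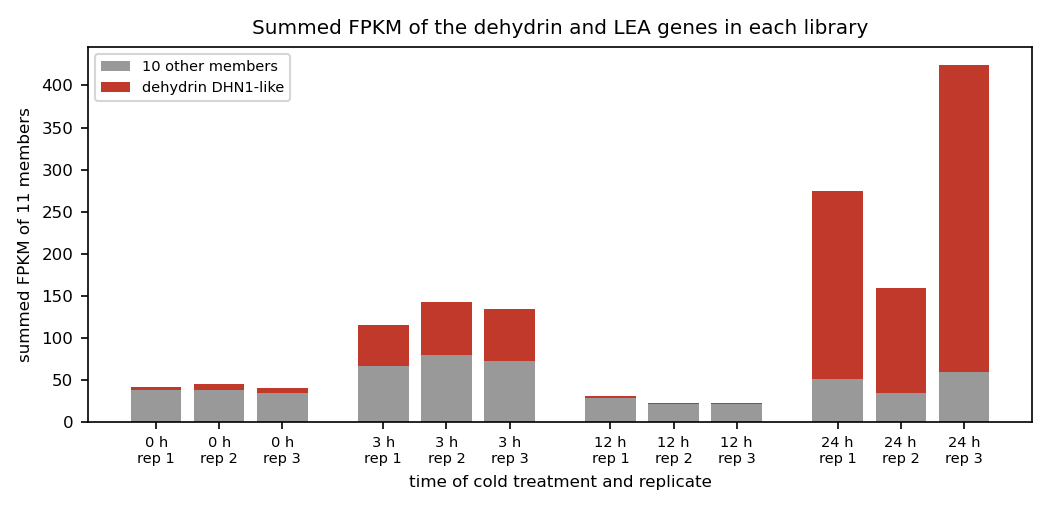
Summed FPKM of the 11 dehydrin and LEA genes in each of the 12 libraries, with the DHN1-like gene in red and the other 10 genes in grey. The sums were 39.7 to 44.7 FPKM at 0 h, 115 to 143 FPKM at 3 h, 22.1 to 31.1 FPKM at 12 h and 159 to 425 FPKM at 24 h, where the red part was 78.4% to 86.1% of each bar.

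The dehydrin DHN1-like gene (CsaV3_4G005460) had the highest level of all members at 3 h and at 24 h. The description likens it to DHN1, the name of dehydrins that are induced by drying in other plants. It held the gene ontology term response to water, which 3 genes of the table held, but 9 of the 11 members carried no term at all. Before the cold, at 0 h, the gene had 3.67, 6.91 and 5.29 FPKM, and at 3 h it had 49.2, 63.6 and 61.9 FPKM. At 12 h it had 2.95, 0.618 and 1.53 FPKM, and at 24 h it had 224, 124 and 366 FPKM. All libraries of 24 h lay above those of 3 h, all of 3 h above those of 0 h, and all of 0 h above those of 12 h.

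The order of the DHN1-like levels was therefore 24 h, 3 h, 0 h and 12 h, and each pair of neighbours in it passed the test. Mean levels were 5.29 ± 1.62 FPKM at 0 h, 58.2 ± 7.83 FPKM at 3 h, 1.70 ± 1.17 FPKM at 12 h and 238 ± 121 FPKM at 24 h (SD, n = 3 each). The log2 fold change was 3.37 at 3 h against 0 h (SE 0.44, limma adjusted p = 7.72e-05) and -1.51 at 12 h against 0 h (SE 0.44, adjusted p = 0.0103). At 24 h it was 5.27 against 0 h (SE 0.44, adjusted p = 1.12e-06), a 45.0-fold ratio of the mean FPKM. By level, the gene ranked between 9332 and 11728 among all genes at 0 h, between 1575 and 2047 at 3 h, between 12089 and 15570 at 12 h, and between 207 and 743 at 24 h.

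Between the cold times, the DHN1-like gene fell by 4.88 on the log2 scale at 12 h relative to 3 h (adjusted p = 3.50e-06). It then rose by 6.77 at 24 h relative to 12 h (adjusted p = 7.41e-07), and it was 1.90 higher at 24 h than at 3 h (adjusted p = 0.00302, a comparison added after the data were seen). Replicates differed most where the level was extreme: the highest library had 4.77 times the lowest at 12 h and 2.94 times the lowest at 24 h, compared with 1.29 times at 3 h and 1.88 times at 0 h. Leaving out any 1 library left the 24 h change between 4.89 and 5.67 and the 12 h change between -1.90 and -1.09.

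**Figure D2:**
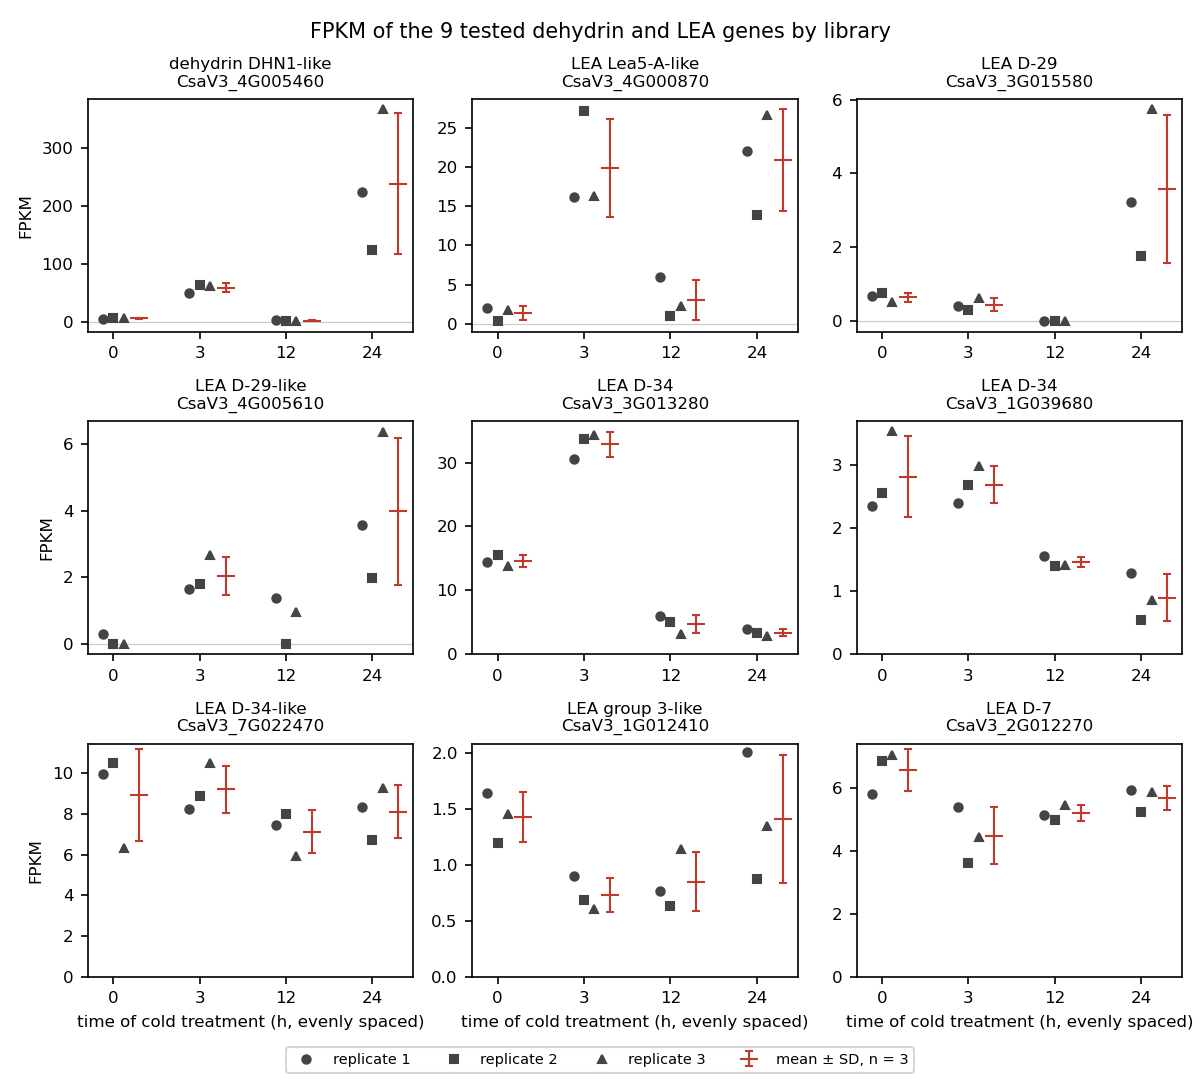
FPKM of each of the 9 tested dehydrin and LEA genes by time of cold treatment, with 1 symbol per replicate and, in red, the mean ± SD (n = 3) where no library was listed at 0. The DHN1-like gene reached 124 to 366 FPKM at 24 h and the Lea5-A-like gene 13.8 to 26.6 FPKM, while the D-34 gene CsaV3_3G013280 peaked at 30.6 to 34.3 FPKM at 3 h.

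At 3 h, 4 of the 9 tested dehydrin and LEA genes were higher than at 0 h, against 9.89% of all tested genes, and 0 were lower, against 5.39%. The higher genes were the DHN1-like gene, the Lea5-A-like gene, a D-29-like gene and a D-34 gene. Without the fold threshold 2 members, of the D-7 and group 3-like types, were lower at an adjusted p under 0.05, beside 26.2% of all tested genes, and 2 at an unadjusted p under 0.05, beside 28.4%. In the same 4 higher genes all 3 h libraries lay above all 0 h libraries, as they did in 36.0% of all tested genes. In 2 members they lay below, as in 31.9% of all genes. The median log2 fold change of the 9 members was 0.07, beside 0.03 over all tested genes.

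Lea5-A-like (CsaV3_4G000870) belongs to a small LEA group whose Arabidopsis member is found in mitochondria and is induced by oxidants and leaf ageing. It had 16.2, 27.1 and 16.3 FPKM at 3 h, against 2.07, 0.357 and 1.73 FPKM at 0 h. All 3 h libraries lay far above the 0 h libraries, and the log2 change was 3.54 (SE 0.54, adjusted p = 0.000227), a 14.3-fold ratio of the means.

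The D-29-like gene CsaV3_4G005610 is of a LEA type first cloned from cotton and built of short repeats that form helices on drying. It had 1.63, 1.79 and 2.67 FPKM at 3 h, against 0.287, 0 and 0 FPKM at 0 h. The 3 h libraries were all higher, and the gene was listed at 0 in all but 1 of the 0 h libraries. Its log2 fold change was 2.10 (SE 0.46, adjusted p = 0.00219) with the pseudocount of 0.5 FPKM, 3.73 with 0.1 and 1.46 with 1, so the size of this change was set largely by the pseudocount.

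The D-34 gene CsaV3_3G013280 belongs to the seed maturation proteins, another type known from cotton embryos. It had 30.6, 33.6 and 34.3 FPKM at 3 h, against 14.5, 15.6 and 13.8 FPKM at 0 h. The replicates lay close together at both times and did not overlap. At a log2 change of 1.14 (SE 0.17, adjusted p = 0.000113), it passed the fold threshold by a small margin.

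The other 5 tested members did not pass both thresholds at 3 h. The group 3-like gene CsaV3_1G012410 averaged 0.728 ± 0.153 FPKM at 3 h and 1.43 ± 0.223 FPKM at 0 h (SD, n = 3 each), giving a log2 change of -0.65 (adjusted p = 0.0237). D-7 (CsaV3_2G012270), which like D-29 is a helix-forming type, averaged 4.49 ± 0.904 FPKM at 3 h and 6.57 ± 0.661 FPKM at 0 h (SD, n = 3 each), giving a log2 change of -0.52 (adjusted p = 0.00449). Both lay below the fold threshold although the libraries did not overlap. D-29 (CsaV3_3G015580), the D-34 gene CsaV3_1G039680 and the D-34-like gene CsaV3_7G022470 had log2 fold changes of -0.29 (95% interval -0.91 to 0.34), -0.04 (-0.46 to 0.38) and 0.07 (-0.33 to 0.47), with overlapping libraries.

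At 12 h, 0 of the 9 members were higher than at 0 h, against 9.62% of all tested genes, and 3 were lower, against 16.6%. The lower genes were the DHN1-like gene, D-29 and the D-34 gene CsaV3_3G013280. No member was higher at an unadjusted p under 0.05 either, beside 25.4% of all tested genes. In 6 members all 12 h libraries lay below all 0 h libraries, beside 46.8% of all tested genes, and in 0 members above, beside 26.3%. The median log2 fold change was -0.53 in the 9 members and -0.23 over all tested genes. Rescaling the libraries to a common median ratio moved the median of all genes up by 0.22 at 12 h and by 0.18 at 24 h and changed none of the 13 member calls made against 0 h. It also turned the split of all tested genes, to 2310 higher and 1973 lower at 12 h in place of 1684 and 2912, and to 2794 higher and 2429 lower at 24 h in place of 2315 and 3159.

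The D-34 gene CsaV3_3G013280 had 5.95, 5.11 and 3.23 FPKM at 12 h, against 14.5, 15.6 and 13.8 FPKM at 0 h. Every 12 h library was below every 0 h library, and the gene that had been higher at 3 h was now lower. Its log2 fold change was -1.56 (SE 0.17, adjusted p = 4.70e-06), which is -1.33 relative to the median of all genes. For the DHN1-like gene the value relative to that median was -1.28.

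D-29 (CsaV3_3G015580) was listed at 0 in all 3 libraries of 12 h, against 0.679, 0.752 and 0.517 FPKM at 0 h. It was called lower (adjusted p = 0.00259), and no fold change is given because of the 0 values. With a pseudocount of 1 FPKM it stayed within the fold threshold (adjusted p = 0.0173). Relative to the median of all genes its change was also within the fold threshold. The level at 0 h was near the filter of 0.5 FPKM, so this call rests on low values.

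Lea5-A-like and D-29-like did not pass the test at 12 h. Lea5-A-like had 5.94, 1.03 and 2.30 FPKM at 12 h, against 2.07, 0.357 and 1.73 FPKM at 0 h, and the libraries overlapped. The log2 fold change was 0.83, with a 95% interval of -0.36 to 2.02 (adjusted p = 0.191). D-29-like had 1.37, 0 and 0.942 FPKM at 12 h, against 0.287, 0 and 0 FPKM at 0 h, giving a log2 change of 0.92 with an interval of -0.09 to 1.94 (adjusted p = 0.0951). In both genes 12 h replicate 2 was the lowest library of its time, and without it both were called higher, with log2 fold changes of 1.32 (adjusted p = 0.0438) and 1.50 (adjusted p = 0.00426). Without 12 h replicate 1, the highest library in both genes, the changes were 0.28 (adjusted p = 0.621) and 0.55 (adjusted p = 0.329). Replicate 2 was the lowest 12 h library in 6 of the 9 members and in 40.2% of all tested genes, and replicate 1 the highest in 5 members and in 52.8% of all tested genes. In the second principal component replicate 1 lay at -41.2, and replicates 2 and 3 at -59.5 and -54.3.

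Smaller differences at 12 h stayed under the fold threshold. The D-34 gene CsaV3_1G039680 averaged 1.46 ± 0.0830 FPKM at 12 h and 2.82 ± 0.637 FPKM at 0 h (SD, n = 3 each), giving a log2 change of -0.74 (adjusted p = 0.00424). The group 3-like gene and D-7 had log2 fold changes of -0.53 (adjusted p = 0.0491) and -0.31 (adjusted p = 0.0490). The D-34-like gene CsaV3_7G022470 had one of -0.29 (95% interval -0.69 to 0.11).

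At 24 h, 4 members were higher than at 0 h, against 13.2% of all tested genes, and 2 were lower, against 18.1%. The higher genes were the DHN1-like gene, Lea5-A-like and both tested D-29 genes, and the lower genes were 2 of the 3 tested D-34 genes. The libraries of 24 h and 0 h did not overlap in these 6 genes, above 0 h in 4 members and in 29.9% of all genes, below 0 h in 2 members and in 44.7% of all genes. The median log2 fold change of the 9 members was -0.05, beside -0.17 over all tested genes.

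Lea5-A-like had 22.0, 13.8 and 26.6 FPKM at 24 h, against 2.07, 0.357 and 1.73 FPKM at 0 h. The lowest 24 h library was well above the highest 0 h library, and the log2 change was 3.60 (SE 0.54, adjusted p = 0.000112). Its levels at 24 h and 3 h overlapped, with a difference of 0.06 and a 95% interval of -1.13 to 1.25, which leaves room for a difference of more than the fold threshold in either direction.

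D-29 (CsaV3_3G015580) had 3.22, 1.77 and 5.73 FPKM at 24 h, against 0.679, 0.752 and 0.517 FPKM at 0 h. It was high at this time alone: its 3 h libraries held 0.404, 0.310 and 0.634 FPKM, and its 12 h libraries were listed at 0. The log2 fold change was 1.71 at 24 h against 0 h (SE 0.29, adjusted p = 0.000165) and 1.995 at 24 h against 3 h (adjusted p = 6.27e-05).

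D-29-like (CsaV3_4G005610) had 3.57, 1.99 and 6.36 FPKM at 24 h, against 0.287, 0 and 0 FPKM at 0 h. All 24 h libraries were above the 0 h libraries. The log2 change was 2.82 (SE 0.46, adjusted p = 0.000152), or 4.55 with a pseudocount of 0.1 FPKM and 2.10 with 1. At 24 h against 3 h its libraries overlapped, and the difference of 0.72 had a 95% interval of -0.29 to 1.74.

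The D-34 genes went the other way. CsaV3_3G013280 had 3.93, 3.33 and 2.84 FPKM at 24 h, against 14.5, 15.6 and 13.8 FPKM at 0 h, giving a log2 change of -1.97 (SE 0.17, adjusted p = 4.76e-07). CsaV3_1G039680 had 1.29, 0.548 and 0.860 FPKM at 24 h, against 2.36, 2.56 and 3.55 FPKM at 0 h, giving a log2 change of -1.26 (SE 0.19, adjusted p = 7.31e-05). Neither gene had a 24 h library within the range of 0 h. Relative to the median of all genes their changes were -1.80 and -1.09.

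The D-34-like gene CsaV3_7G022470 did not move with them: its log2 fold change at 24 h was -0.11 (95% interval -0.51 to 0.29), and over all 12 libraries it stayed between 5.93 and 10.5 FPKM. D-7 stayed between 3.61 and 7.05 FPKM and the group 3-like gene between 0.602 and 2.01 FPKM, with log2 fold changes at 24 h of -0.19 (-0.47 to 0.09) and -0.05 (-0.53 to 0.43). In these 3 genes the 24 h and 0 h libraries overlapped.

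**Figure D3:**
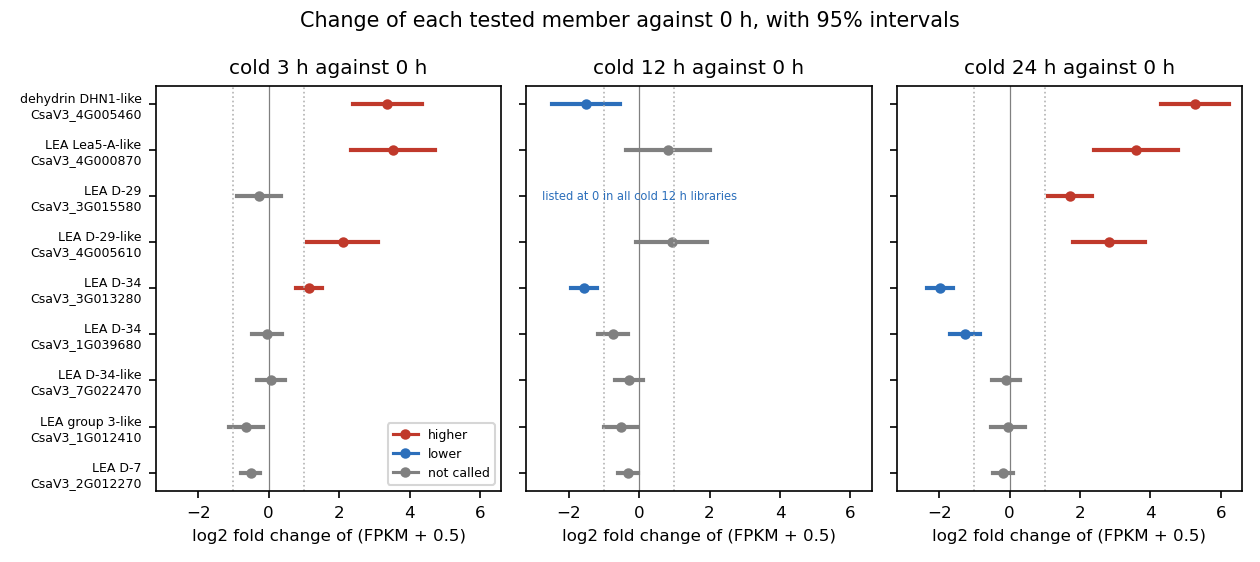
Log2 fold change of (FPKM + 0.5) against 0 h for the 9 tested genes at 3, 12 and 24 h, with 95% intervals from limma, the fold thresholds as dotted lines, and calls in red (higher), blue (lower) or grey (not called). The DHN1-like gene stood at 3.37, -1.51 and 5.27, and the D-34 gene CsaV3_3G013280 at 1.14, -1.56 and -1.97. D-29 has no point at 12 h because it was listed at 0 there.

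The 24 h libraries differed among themselves in a way that the members shared. Replicate 2 was the lowest 24 h library in 8 of the 9 tested members, compared with 49.7% of all tested genes. The DHN1-like gene, D-29, Lea5-A-like, D-29-like and the D-34-like gene CsaV3_7G022470 were all highest in replicate 3, next in replicate 1 and lowest in replicate 2. Replicate 2 was also the library that lay apart in the second principal component, and what sets it apart was not tested. The 24 h calls against 0 h did not change when it, or any other library, was left out.

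Between consecutive cold times, 4 members were lower at 12 h than at 3 h, against 15.3% of all tested genes, and 0 were higher, against 6.00%. By the non-overlap of libraries, 7 members were lower, beside 50.7% of all genes, and 0 higher, beside 21.2%. No member was higher at an unadjusted p under 0.05, beside 3503 of all tested genes. Apart from the DHN1-like gene, Lea5-A-like had 5.94, 1.03 and 2.30 FPKM at 12 h, against 16.2, 27.1 and 16.3 FPKM at 3 h, giving a log2 change of -2.71 (adjusted p = 0.00106). The D-34 gene CsaV3_3G013280 had 5.95, 5.11 and 3.23 FPKM at 12 h, against 30.6, 33.6 and 34.3 FPKM at 3 h, giving a log2 change of -2.70 (adjusted p = 6.41e-08). The libraries of the 2 times were far apart in both genes. The call of D-29-like was weak, with a log2 fold change of -1.17 (adjusted p = 0.0411), and it was lost under rescaling and when 12 h replicate 2 was left out (-0.60, adjusted p = 0.181).

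At 24 h against 12 h, 4 members were higher, against 8.46% of all tested genes, and 0 were lower, against 5.20%, and 2 were lower at an unadjusted p under 0.05 without the fold threshold, beside 27.7%. In 4 members the 24 h libraries lay above those of 12 h, beside 29.5% of all genes, and in 1 below, beside 27.0%. Lea5-A-like rose by 2.77 on the log2 scale (adjusted p = 0.00137) and D-29-like by 1.90 (adjusted p = 0.00451). D-29, listed at 0 at 12 h, was also called higher (adjusted p = 6.00e-06). The D-34 genes CsaV3_3G013280 and CsaV3_1G039680 had log2 differences of -0.42 (adjusted p = 0.0548) and -0.52 (adjusted p = 0.0372), within the fold threshold.

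The 24 h and 3 h levels were compared as an addition made after the data were seen. Here 2 members were higher at 24 h, the DHN1-like gene and D-29, against 7.85% of all tested genes, and 2 were lower, the D-34 genes CsaV3_3G013280 and CsaV3_1G039680, against 15.1%. The 24 h and 3 h libraries did not overlap in these 4 genes, which holds for 23.4% of all genes in the higher and 46.4% in the lower direction. CsaV3_3G013280 had 3.93, 3.33 and 2.84 FPKM at 24 h, against 30.6, 33.6 and 34.3 FPKM at 3 h, giving a log2 change of -3.12 (adjusted p = 1.41e-08). CsaV3_1G039680 had one of -1.22 (adjusted p = 0.000132), and the call was lost with a pseudocount of 1 FPKM and under quantile normalization.

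The members thus did not share a time course. To see which genes ran closest to the DHN1-like gene, each gene's log2(FPKM + 0.5) was centred on its own mean over the 12 libraries and set against that of the DHN1-like gene by the root mean square difference. Lea5-A-like was the nearest member at 1.53, with 101 of 17488 genes outside the family nearer, followed by D-29-like at 1.85 with 256 nearer and D-29 at 1.93 with 321 nearer. The other 5 members lay at 2.66 to 2.99, with at least 6057 genes nearer. The root mean square difference takes in the size of changes as well as their timing. Genes that hardly changed therefore also lie far from the DHN1-like gene.

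The nearest gene of all was CsaV3_3G032790, a phosphatidyl-N-methylethanolamine N-methyltransferase, which makes the membrane lipid phosphatidylcholine, at a difference of 0.597. Its mean level was 3.80 FPKM at 0 h, 60.7 FPKM at 3 h, 2.08 FPKM at 12 h and 138 FPKM at 24 h. It was followed by an uncharacterized protein (CsaV3_3G032550, 0.714) with 2.11, 69.3, 1.97 and 212 FPKM at 0, 3, 12 and 24 h, and by a hypothetical protein (CsaV3_6G032080, 0.774) with 0.0926, 7.89, 0.103 and 17.9 FPKM. Next came a transporter annotated as NRT1/PTR FAMILY 4.5-like (CsaV3_2G028250, 0.908) and a probable xyloglucan endotransglucosylase/hydrolase, an enzyme that remodels cell walls (CsaV3_1G031420, 0.971). All 5 were highest at 24 h and second highest at 3 h. These likenesses describe the 12 libraries, which share 4 times of sampling, and were not tested.

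**Figure D4:**
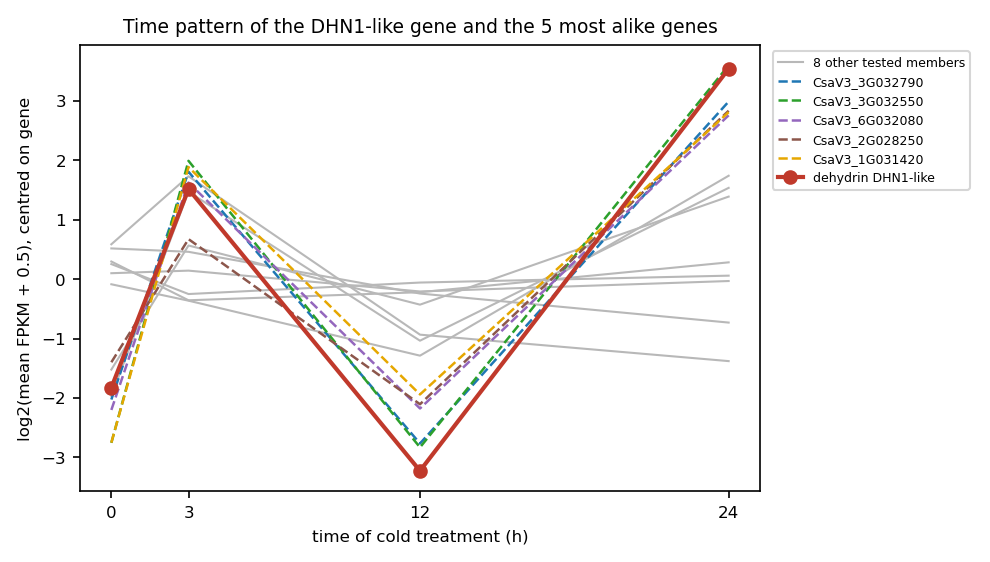
Log2(mean FPKM + 0.5), centred on each gene's mean over the 4 times, against the time of cold treatment for the DHN1-like gene (red), the 5 genes outside the family nearest to it (dashed, with root mean square differences of 0.597 to 0.971) and the other 8 tested members (grey). The dashed lines peak at 3 h and 24 h with the red line, as do the grey lines of Lea5-A-like and D-29-like. All grey lines lie above the red line at 12 h and below it at 24 h.

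Genes of the pathways that are known to act on dehydrin and LEA promoters were counted from lists of descriptions. Of all tested genes 9.89%, 9.62% and 13.2% were higher and 5.39%, 16.6% and 18.1% lower at 3, 12 and 24 h against 0 h, and the list counts stand beside these shares. Of 12 DREB genes 6 were tested, of which 5, 3 and 5 were higher at 3, 12 and 24 h against 0 h and 0, 1 and 0 were lower. DREB1A (CsaV3_3G016760), a DREB factor of the cold-responsive CBF group, averaged 5.83 FPKM at 3 h and 0.890 FPKM at 0 h, giving a log2 change of 2.20 (adjusted p = 4.58e-05). At 12 h it was lower, with a mean of 0.0780 FPKM and a log2 fold change of -1.25 (adjusted p = 0.00217). This call rests on low values, near or under the filter of 0.5 FPKM. DREB1B-like (CsaV3_5G005890) averaged 2.96 FPKM at 3 h and 0.108 FPKM at 0 h, giving a log2 change of 2.51 (adjusted p = 1.99e-06). Its log2 fold change at 12 h was 0.002 (adjusted p = 0.995). The DREB2A-like gene CsaV3_4G026790, of the group known for drought and heat, was higher than at 0 h at all 3 times, by 2.13 at 3 h (adjusted p = 8.13e-08), 2.94 at 12 h (adjusted p = 1.57e-09) and 4.52 at 24 h (adjusted p = 3.38e-11) on the log2 scale. DREB1A and DREB1B-like were higher at 24 h as well, by 1.83 (adjusted p = 0.000114) and 3.07 (adjusted p = 1.22e-07).

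Of 8 ABA-responsive bZIP genes 6 were tested, of which 0 were higher at any time and 1, 2 and 3 were lower at 3, 12 and 24 h. Protein ABSCISIC ACID-INSENSITIVE 5 (CsaV3_3G037220), a factor that turns on LEA genes in seeds, averaged 2.52 FPKM at 24 h and 18.2 FPKM at 0 h, giving a log2 change of -2.63 (adjusted p = 3.44e-10). Of 29 genes for ABA receptors and for the PP2C phosphatases and SnRK2 kinases that act after them, 26 were tested. Of these 4, 2 and 4 were higher and 3, 10 and 9 were lower at 3, 12 and 24 h. The receptor PYL4-like (CsaV3_4G026530) averaged 12.7 FPKM at 24 h and 0.427 FPKM at 0 h, giving a log2 change of 3.80 (adjusted p = 4.65e-08), and protein phosphatase 2C 75 (CsaV3_3G016530) averaged 19.1 FPKM at 24 h and 105 FPKM at 0 h, giving a log2 change of -2.46 (adjusted p = 1.21e-07).

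Of 19 other genes named for cold, desiccation or early light induction 18 were tested, of which 3, 3 and 4 were higher and 2, 9 and 7 were lower at 3, 12 and 24 h. EARLY RESPONSIVE TO DEHYDRATION 15-like (CsaV3_4G022030) averaged 38.1 FPKM at 3 h and 7.73 FPKM at 0 h, giving a log2 change of 2.23 (adjusted p = 6.25e-06), and was higher by 2.49 at 24 h against 0 h (adjusted p = 9.91e-07). The low-temperature-induced cysteine proteinase CsaV3_4G034650 averaged 404 FPKM at 12 h and 30.0 FPKM at 0 h, giving a log2 change of 3.73 (adjusted p = 1.51e-11), at the time when the DHN1-like gene was lowest. The DEHYDRATION-INDUCED 19 homologs CsaV3_1G008860 and CsaV3_6G050350 went the other way. At 24 h against 0 h their log2 fold changes were -2.70 (adjusted p = 7.36e-11) and -2.17 (adjusted p = 2.83e-11).

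Because LEA genes are best known from seeds, seed storage and oil body genes were counted as well. Of 18 such genes 11 were tested, 3 were listed at 0 in all 12 libraries, and 3, 4 and 4 were higher and 0, 2 and 1 lower at 3, 12 and 24 h. The sum of this list was 15.1 to 15.99 FPKM at 0 h, 27.6 to 31.9 FPKM at 3 h, 28.9 to 35.8 FPKM at 12 h and 18.1 to 21.7 FPKM at 24 h. Oleosin 1-like (CsaV3_5G004910) made up 46.6% to 51.9% of the sum at 12 h. Without it the sum was 10.6 to 11.3 FPKM at 0 h and 22.1 to 26.4 FPKM at 3 h. At 12 h it was then 13.9 to 19.1 FPKM, and at 24 h 12.4 to 16.3 FPKM. This remaining sum was highest at 3 h.

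Marker genes of leaf tissues were counted in the same way. The 19 leaf mesophyll genes (small subunit of Rubisco and chlorophyll-binding proteins) summed to 28088 to 32579 FPKM at 0 h, 29027 to 32850 FPKM at 3 h, 66282 to 80447 FPKM at 12 h and 38445 to 53983 FPKM at 24 h, and so were abundant in every library. Of these genes 8, 15 and 9 were higher at 3, 12 and 24 h and 0 lower at any time. The Rubisco gene CsaV3_5G034360 made up 38.7% to 72.9% of the mesophyll sum in each library. It averaged 21515 FPKM at 0 h and 14287 FPKM at 3 h. Without it the mesophyll sum was 8249 to 8836 FPKM at 0 h and 15556 to 17414 FPKM at 3 h. That remaining sum was 39428 to 49335 FPKM at 12 h and 17146 to 25318 FPKM at 24 h. Since FPKM are shares of a library, a rise of such abundant genes lowers the share left to others, and its part in the member levels at 12 h was not tested. Of 27 tested epidermis and cuticle genes 15, 2 and 5 were higher and 1, 5 and 5 lower, with sums of 3051 to 3248 FPKM at 0 h, 6767 to 7763 FPKM at 3 h, 2426 to 3169 FPKM at 12 h and 2848 to 3802 FPKM at 24 h. Of 23 tested phloem genes 3, 2 and 4 were higher and 2, 5 and 5 lower, and of 10 tested xylem genes 0 were higher at any time and 0, 2 and 1 were lower. The phloem and xylem counts were near the shares over all genes. The epidermis sum was mostly 1 gene, non-specific lipid-transfer protein 1 (CsaV3_3G033150), with 85.2% to 88.7% of it in each library. Without this gene the sum was 435 to 453 FPKM at 0 h, 842 to 927 FPKM at 3 h, 320 to 393 FPKM at 12 h and 379 to 468 FPKM at 24 h. It was highest at 3 h, when the D-34 gene CsaV3_3G013280 was highest, and its part in that level was not tested.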

How the data were processed

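Reads were trimmed by the authors (cutadapt 1.9 and FastQC in the submitters' processing notes) and mapped with HISAT2 to the Chinese Long V3 cucumber genome, and FPKM per gene were deposited. Which program gave FPKM is not stated in the sources used here. The deposited tables of a pair of times also hold the authors' fold changes, p-values and q-values, none of which was used. FPKM came from the table of all 4 times, in which 0.0001 stands for 0 and was set to 0.

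A gene was tested if 3 or more of the 12 libraries reached 0.5 FPKM, which 17497 genes did. Log2(FPKM + 0.5) was modelled in limma 3.58.1 (R 4.3.3) with lmFit and with eBayes using its trend and robust options. All libraries entered 1 fit, with no intercept and no replicate block. Calls needed a Benjamini-Hochberg adjusted p under 0.05, taken over the whole set tested, and a change beyond 1 in either direction on the log2 scale. Relative depth was read from ratios of values under 0.1 FPKM, of which 15 to 34 of 168 to 244 per library lay together. Python 3.11.15, numpy 2.4.6, pandas 2.3.3 and matplotlib 3.10.9 served for tables and figures, and the fit was tested on simulated data.

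The members and the lists were chosen with earlier results of these data known. All members may be named. Full values were given for the dehydrin and, among LEA genes, for the 4 highest and 4 lowest called in each comparison with 0 h, ranges for others, and at most 2 higher and 2 lower called genes from each other list. The alternatives were pseudocounts of 0.1 and 1, no filter, a filter at 1 FPKM, rescaling by median ratios, quantile normalization, fitting only a comparison's own libraries, a replicate block, an unadjusted p, no fold threshold, and each library left out. Sequences and genome coordinates were not used here.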

Additional observations from a re-analysis of the deposited data

How the results depend on the processing

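Of 1080 fold changes of members recomputed under the alternatives, 20 moved to the other side of a call, and 20 changed sign without being called either way. None of the 13 calls against 0 h was lost except D-29 (CsaV3_3G015580) at 12 h, with a pseudocount of 1. Without the fold threshold, 2 members were lower at 3 h against 0 h (26.2% of all tested genes), 6 at 12 h against 0 h (44.7%), 6 at 12 h against 3 h (47.4%) and 1 at 24 h against 12 h (25.2%), and 4 were higher at 24 h against 3 h (22.2%). Leaving out 12 h replicate 2 gave 2 members higher at 12 h against 0 h, so that this count ranged from 0 to 2 over the libraries left out. At 24 h against 3 h, CsaV3_1G039680 lost its call with a pseudocount of 1 (-0.97) and under quantile normalization (-0.96). This left CsaV3_3G013280 as the only member called lower there. The call of D-29-like at 12 h against 3 h was lost with either other pseudocount, no filter, both rescalings, the libraries of the comparison alone and 7 of the 12 libraries left out in turn.

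The same-numbered libraries of different times did not deviate together: their deviations correlated at -0.164 to 0.158 over 18 pairs, 2 of them over 0.1, and 2 of 12 libraries correlated best with their own number. The replicate numbers were therefore not taken as a pairing, and with the number as a block the counts stayed at 4 members higher at 3 h, 3 lower at 12 h, and 4 higher and 2 lower at 24 h against 0 h.

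Over all tested genes, 1049 were higher and 2678 lower at 12 h against 3 h, but 1626 and 1762 after median-ratio rescaling and 1658 and 1654 after quantile normalization. At 24 h against 3 h, 1373 were higher and 2647 lower, but 1826 and 1810 after median-ratio rescaling. The cause was not tested. Depth limits the genes near 0.5 FPKM, where a value listed at 0 does not show absence.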

Other observations

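Genes outside the description rule carry related names and were looked up after the member values had been seen. Phosphoprotein ECPP44 (CsaV3_6G031720), named after a dehydrin-type phosphoprotein of carrot embryogenic cells, held the response to water term and was far more abundant than any member at 0 h. It had 207, 224 and 216 FPKM at 0 h, 375, 386 and 430 FPKM at 3 h, 262, 274 and 307 FPKM at 12 h, and 340, 313 and 363 FPKM at 24 h. Its log2 fold changes against 0 h were 0.88 at 3 h, 0.38 at 12 h and 0.65 at 24 h, all with an adjusted p under the threshold and none past the fold threshold. Every 12 h library of this gene lay above those of 0 h, whereas every 12 h library of the DHN1-like gene lay below.

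Embryogenic cell protein 40 (CsaV3_2G015030), also named from carrot and the other carrier of that term outside the rule, had 6.50, 8.27 and 8.11 FPKM at 24 h, against 1.99, 1.11 and 2.80 FPKM at 0 h. It was higher at 24 h, by 1.77 on the log2 scale (limma adjusted p = 1.02e-05), and at 12 h, by 1.33 (adjusted p = 0.000140). The desiccation protectant Lea14 homolog (CsaV3_3G008590) had 0.502, 0.261 and 0.312 FPKM at 12 h, against 1.14, 1.45 and 1.12 FPKM at 0 h, giving a log2 change of -1.02 (adjusted p = 0.000174). It passed the fold threshold by a small margin, and its 12 h values lay near or under the filter. At 3 and 24 h against 0 h it was not called, with log2 fold changes of -0.14 and -0.60.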
